A study of Drosophila melanogaster with 16 samples.

Results

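The Dscam family of *Drosophila melanogaster* comprises 4 genes, Dscam1, Dscam2, Dscam3 and Dscam4, and was examined here as 4 of 13946 protein-coding genes through the histone marks called over them in fly heads. Members were taken by name, and each region ran from 1000 bp before the low-coordinate end of a gene to 1000 bp past its high-coordinate end. The heads came from male flies of strain w1118, labelled wild type and mutant for the eye colour gene white, and adults were sampled at day 10 or day 50. All groups shared that strain, sex, tissue and culture, and each replicate was a pool of heads. Chromatin immunoprecipitation was done for monomethylated lysine 4 of histone H3 (H3K4me1) or acetylated lysine 27 (H3K27ac), each with its input, giving 8 groups of 2 samples. Each mark and age has 1 peak list, 4 in all, in which both replicates were pooled, so there is no spread between replicates, no test of age, and an unknown read depth. Whole heads hold neurons, photoreceptors, glia, fat body and muscle together, and fewer cells of a type and less of a mark per cell cannot be told apart.

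Dscam proteins are cell surface receptors of the immunoglobulin superfamily, with immunoglobulin and fibronectin type III domains outside the cell, that bind copies of themselves. In Dscam1, mutually exclusive splicing of clustered exons yields very many isoforms, and binding between identical isoforms lets branches of the same neuron recognise and avoid each other. Dscam2 has a pair of alternative ectodomain isoforms and acts in the layered wiring of the visual system. Dscam3 and Dscam4 are less studied paralogues. H3K4me1 is found at enhancers, active or not, and H3K27ac at active promoters and enhancers.

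The 4 regions held 99 H3K4me1 peaks at day 10 and 84 at day 50, of 43871 and 41851 in the whole lists. They held 69 H3K27ac peaks at day 10 and 42 at day 50, of 26699 and 25439. Summed over the 178 kb of the 4 regions, 34.5 kb lay under H3K4me1 peaks at day 10 and 26.9 kb at day 50, a ratio of 0.781. For H3K27ac the sums were 22.2 and 11.6 kb, a ratio of 0.521. The same sums over all genes with a region of at least 20 kb, the length class of the 4 genes, had ratios of 0.861 and 0.816.

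The 4 genes stood in the same order for both marks at both ages: Dscam4 had the largest share of its region under peaks, then Dscam2, Dscam3 and Dscam1. For H3K27ac the order spanned from 27.7% at Dscam4 to 0.896% at Dscam1 at day 10. No replicate values were at hand, so whether neighbours in that order differ beyond replicate spread is unknown. In 7 of the 8 pairs of gene and mark the share was lower at day 50, and H3K27ac at Dscam1 was the exception. Among these long genes as a whole, 76.7% had fewer bases under H3K4me1 and 65.8% fewer under H3K27ac at day 50, whatever the size of the difference.

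**Figure D1:**
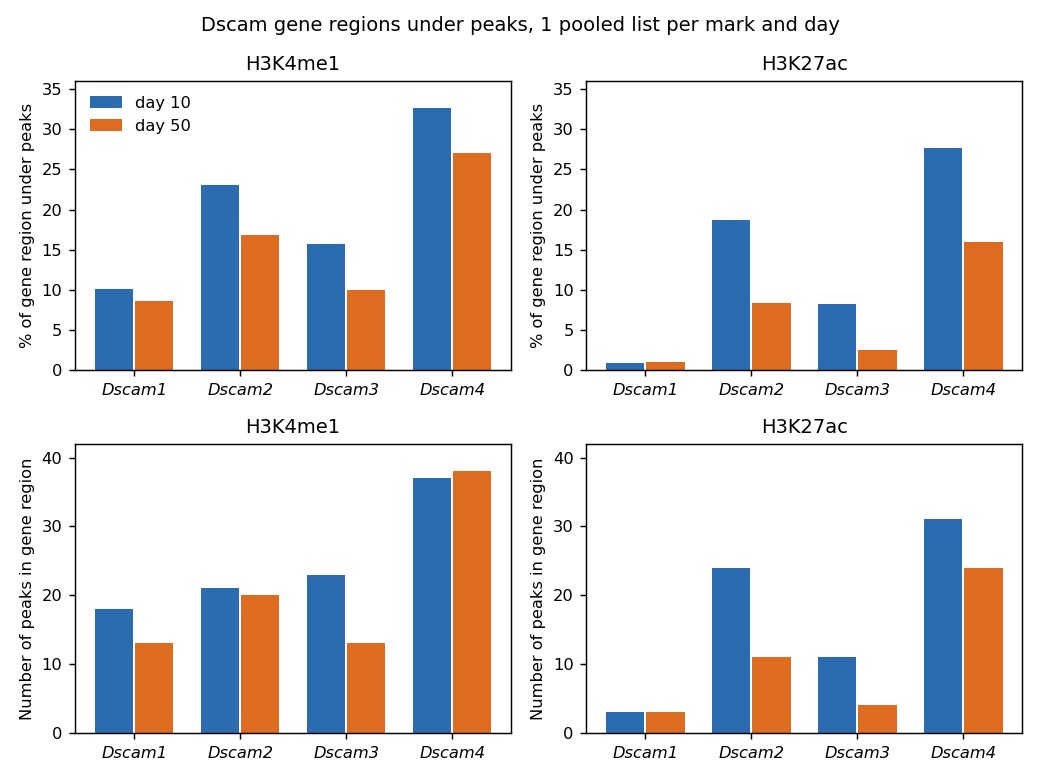
Percent of each gene region under peaks (upper panels) and number of peaks in it (lower panels) for H3K4me1 and H3K27ac at day 10 (blue) and day 50 (orange), 1 pooled list per bar and no error bars. H3K27ac bars are lower at day 50 for Dscam2, Dscam3 and Dscam4, while those of Dscam1 are near 1% at both ages.

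A gene was counted as lower at day 50 if its bases under peaks were at most 1/1.5 of those at day 10, and as higher if they were at least 1.5 times as many. By this rule 3 of the 4 genes were lower for H3K27ac (Dscam2, Dscam3 and Dscam4) and 1 for H3K4me1 (Dscam3), and 0 were higher for either mark. Of all genes with an H3K27ac peak at either age, 7.81% were lower and 22.7% higher. Among the 991 such genes with a region of at least 20 kb, 28.8% were lower and 11.1% higher, so a lower H3K27ac coverage was commoner among long genes than among all genes. For H3K4me1, 9.99% of all genes were lower and 13.5% higher, and among 1099 long genes 17.5% were lower and 5.28% higher. The median long gene had a day 50 to day 10 ratio of 0.858 for H3K4me1 and 0.838 for H3K27ac, with quartiles of 0.723 and 0.978 and of 0.62 and 1.07. All 3 Dscam genes that were lower in H3K27ac lay below the lower quartile, and Dscam3 alone did so in H3K4me1 (0.638).

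**Figure D2:**
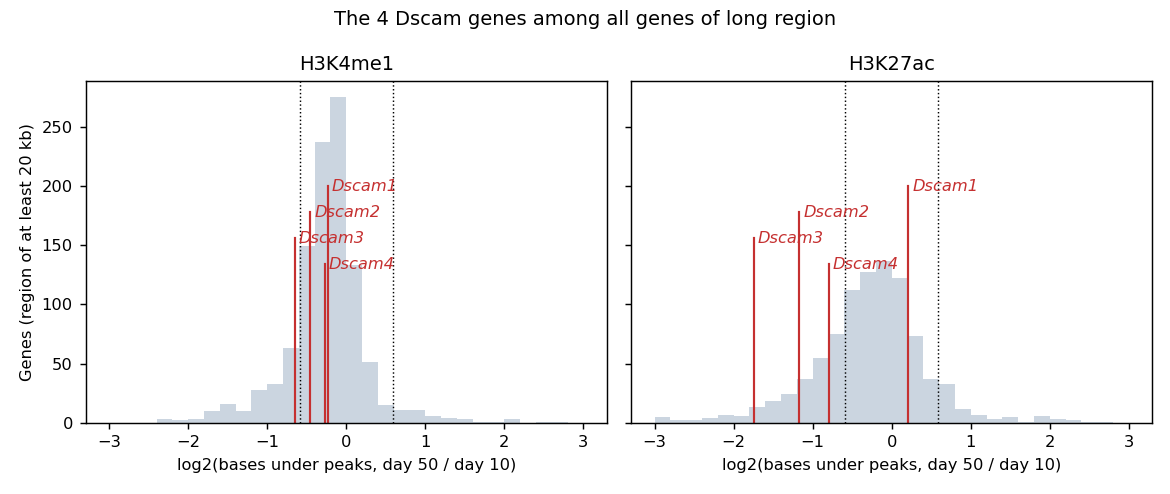
Histograms of log2 of the bases under peaks at day 50 over day 10 for genes with a region of at least 20 kb and peaks at both ages (1070 genes for H3K4me1, 930 for H3K27ac, with 4 of the latter below -3 drawn in the last bin), with the 4 Dscam genes as red lines and the 1.5-fold rule dotted at -0.585 and 0.585. In H3K27ac Dscam3 (-1.74), Dscam2 (-1.17) and Dscam4 (-0.79) lie left of the dotted line and Dscam1 (0.21) lies between the lines.

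Dscam1, the gene of very many isoforms, lies at 2R:7317924-7381899 of the Release 6 assembly, and the gene table used gives no strand, exons or variable exon clusters. Its region of 66.0 kb had 18 H3K4me1 peaks at day 10 covering 6.69 kb (10.1%) and 13 at day 50 covering 5.68 kb (8.62%). The ratio of 0.85 was close to that of the median long gene, the 527th lowest of 1084. The marks occupied one side of the gene only: the first 34.6 kb from the low-coordinate end of the region held no H3K4me1 peak at day 10, and 34.5 kb held none at day 50. All H3K4me1 summits lay in 2 stretches, 3 and 2 of them (day 10 and day 50) between 30 and 40 kb from the low-coordinate gene end and 15 and 11 beyond 50 kb.

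The strongest H3K4me1 peak of Dscam1 was in the middle of the gene. It spanned 2R:7352745-7353112 at day 10, with a fold enrichment over background, as the authors' peak caller gave it, of 4.11, above 97.8% of that list. At day 50 the overlapping peak at 2R:7352700-7353107 had a fold of 4.31, above 98.4% of its own list. Neither overlapped an H3K27ac peak. The 13 day 50 peaks all overlapped a day 10 peak, and the 5 day 10 peaks without a day 50 partner were narrow, with a median width of 166 bp against 437 bp for the others.

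H3K27ac at Dscam1 was sparse at both ages, with 3 peaks at each, covering 0.591 kb at day 10 and 0.683 kb at day 50 (0.896% and 1.03% of the region). All of them lay within 2R:7380428-7381798, near the high-coordinate end of the gene, and left 63.5 and 63.7 kb free of the mark. That stretch adjoins cos, which encodes the kinesin-like Costal of Hedgehog signalling, and 379 bp of its H3K27ac bases at day 10 and 448 bp at day 50 lay in the part where the regions of both genes overlap. When peaks had to reach a -log10 q of 5, the day 50 to day 10 ratio of 1.16 became 0.842, so its direction depended on the threshold.

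Dscam2, with roles in visual system wiring, lies at 3L:7159199-7189931. Its region of 32.7 kb had 24 H3K27ac peaks at day 10 covering 6.14 kb (18.8%) and 11 at day 50 covering 2.73 kb (8.34%), a 2.25-fold difference. The ratio of 0.445 was the 115th lowest of 958 long genes with an H3K27ac peak at day 10. H3K4me1 differed less, with 21 and 20 peaks that covered 7.56 and 5.51 kb (23.1% and 16.8%), a ratio of 0.728. The number of H3K4me1 peaks was thus nearly the same, and their median width was 396 bp at day 10 and 256 bp at day 50.

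The H3K27ac difference of Dscam2 was concentrated in the middle of the gene. In the 4.62 kb at 3L:7173228-7177851 there were 9 peaks covering 2.71 kb at day 10 and 4 covering 0.63 kb at day 50. In the next group of peaks, at 3L:7178964-7183509, 8 peaks covered 2.07 kb and 3 covered 0.927 kb. H3K4me1 peaks fell into groups with other limits. At 3L:7173281-7180640, which takes in most of the first H3K27ac group and part of the second, 10 H3K4me1 peaks at each age covered 4.44 and 3.04 kb. At 3L:7182147-7186408, 6 H3K4me1 peaks covered 1.73 kb at day 10 and 4 covered 1.38 kb at day 50. The strongest H3K27ac peak seen at day 10 alone lay at 3L:7175374-7175619, with a fold of 2.90 above 71.1% of its list.

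One end of Dscam2 went the other way. The H3K27ac peak at 3L:7158139-7158769 was 0.269 kb long at day 10 and 0.631 kb at day 50, where it had the highest fold of the region (3.24). It lies outside the Dscam2 gene body and over CG8620, a neighbouring gene whose region overlaps that of Dscam2, and the H3K27ac share of the CG8620 region was 9.69% at day 10 and 22.7% at day 50. With the bases shared with CG8620 left out, a setting added after seeing the data, the H3K27ac ratio of Dscam2 was 0.365.

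Dscam3 lies at 3R:17473935-17505667, and no other gene region overlaps its region of 33.7 kb. It had the largest relative differences of the family in both marks. H3K27ac peaks numbered 11 at day 10 and 4 at day 50 and covered 2.78 and 0.83 kb (8.24% and 2.46%), a 3.35-fold difference that was the 59th lowest ratio of 958 long genes. H3K4me1 peaks numbered 23 and 13 and covered 5.30 and 3.38 kb (15.7% and 10.0%), a 1.57-fold difference. That H3K4me1 value was just past the 1.5-fold rule, and Dscam3 no longer met the rule with equal numbers of peaks per list (ratio 0.701) or with flanks of 5000 bp (0.738), nor under a 2-fold rule.

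H3K27ac peaks of Dscam3 were weak at both ages, with median folds of 1.92 and 1.97. The strongest at day 10, at 3R:17500168-17500353 with a fold of 2.72, had no day 50 counterpart. At day 50 the strongest was at 3R:17492986-17493151, with a fold of 2.27 above 30.3% of its list. H3K4me1 at Dscam3 also differed in place: the day 10 list had 3 peaks between 3R:17478557 and 3R:17482329 where the day 50 list had 0, and the day 50 list had 3 between 3R:17485864 and 3R:17488196 where the day 10 list had 0. The strongest H3K4me1 peak at both ages was the one just past the high-coordinate gene end, at 3R:17506601-17506864 and 3R:17506617-17506857, with folds of 3.74 and 3.12 within their lists. It only partly overlapped the region, which ends at 3R:17506667, and its summit lay outside at both ages. Among peaks with a summit inside the region, the highest folds were 3.23 at day 10 and 2.86 at day 50.

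Dscam4 lies at 3L:8238647-8282398, on the same chromosome arm as Dscam2, and was the most heavily marked of the 4. Its region of 45.8 kb had 31 H3K27ac peaks at day 10 covering 12.7 kb (27.7%) and 24 at day 50 covering 7.31 kb (15.98%), a 1.73-fold difference. Its share was above that of 93.9% of 1149 long genes at day 10 and of 83.2% at day 50. H3K4me1 peaks numbered 37 and 38 and covered 14.9 and 12.4 kb (32.6% and 27.04%), a ratio of 0.829. As in Dscam2, H3K4me1 peaks were as many but narrower, with median widths of 337 and 289 bp.

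The strongest element of Dscam4 carried both marks at both ages. H3K4me1 peaked at 3L:8245095-8245579 at day 10 and 3L:8245083-8245580 at day 50, with folds of 4.11 and 3.79. H3K27ac peaked at 3L:8244936-8245620 and 3L:8245066-8245610, with folds of 3.59 and 3.57, in both lists the highest of the gene. The H3K27ac peak itself was 685 bp wide at day 10 and 545 bp at day 50. Of the 12 stretches of H3K27ac peaks across the region, 10 had fewer bases at day 50 and 2 had more. The stretch around the element, 3L:8241530-8248392, had the largest difference, with 4.89 and 3.35 kb. At 3L:8252565-8255038, H3K27ac covered 1.64 kb at day 10 and 0.392 kb at day 50, and at 3L:8249444-8251536 it covered 1.41 and 0.529 kb.

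The low-coordinate end of Dscam4 differed from the rest of the gene, for H3K27ac only through a peak that also lies in a neighbouring gene. In the first of 10 equal segments of the region, H3K4me1 covered 0.567 kb at day 10 and 1.47 kb at day 50, and H3K27ac 0.413 and 0.702 kb. In 8 of the other 9 segments both marks covered fewer bases at day 50, and in the last segment there was no peak. The gene bodies of Dscam4 and CG7213 overlap there by 1955 bp, up to 3L:8240601. Of the day 50 peaks in the segment, 3 of H3K4me1 and 1 of H3K27ac lay in that overlap and cannot be given to one gene, and the others, with both day 10 peaks, lay in the Dscam4 body alone. The H3K27ac peak in the overlap was at 3L:8238686-8239028, with a fold of 2.52. Outside the overlap the H3K27ac peak of the segment was 413 bp wide at day 10 and 359 bp at day 50, lower as elsewhere in the gene. With the bases shared with neighbouring regions left out, the ratios of Dscam4 were 0.763 for H3K4me1 and 0.547 for H3K27ac.

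**Figure D3:**
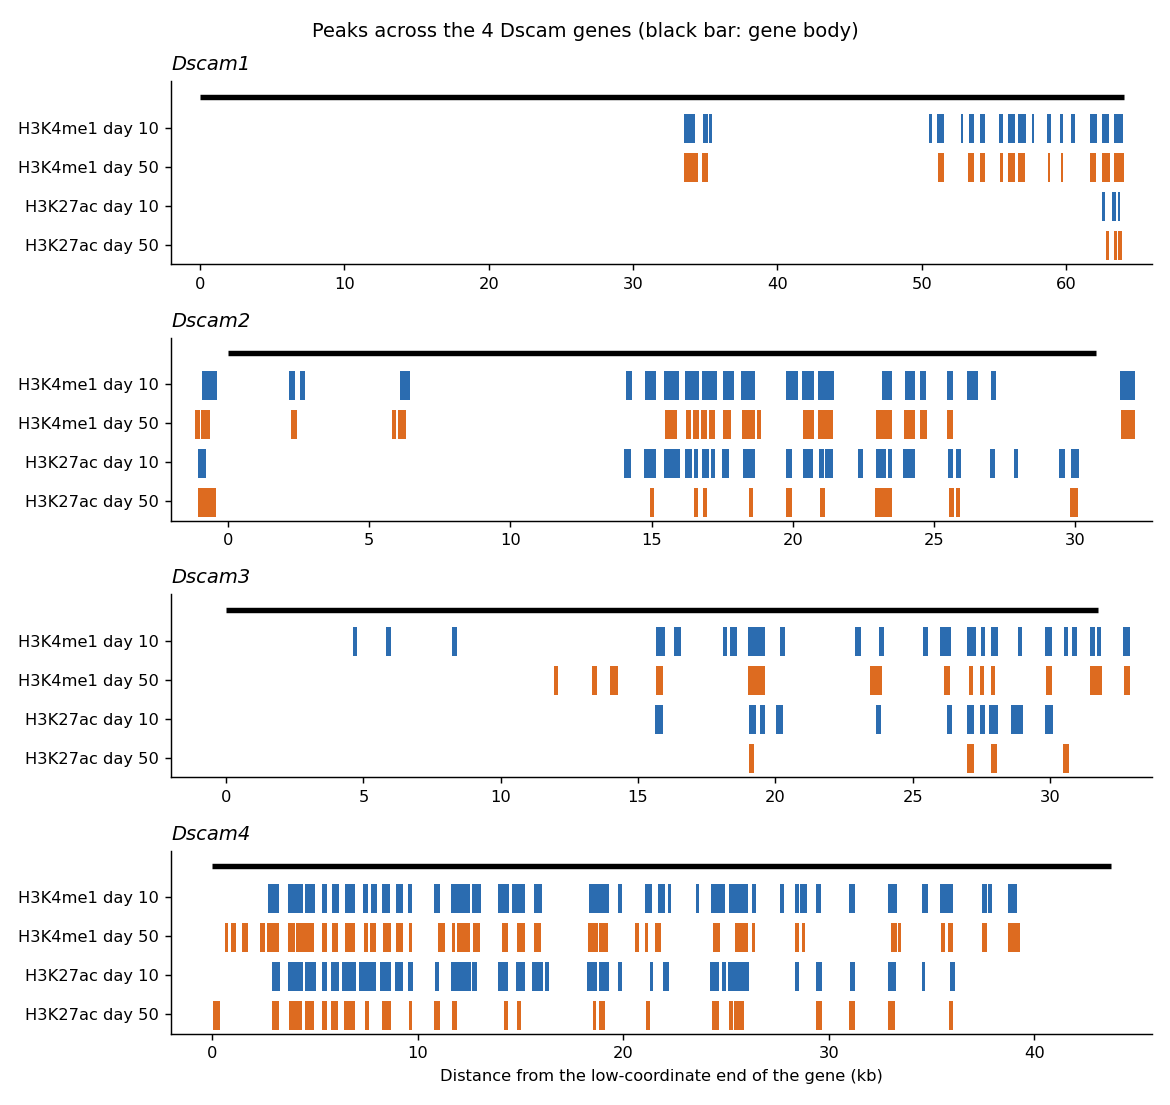
Peaks of each mark and age (blue, day 10; orange, day 50) drawn to scale across the 4 genes, against distance in kb from the low-coordinate end of the gene body (black bar). Dscam1 has no peak in its first 30 kb, and H3K27ac blocks in the middle of Dscam2 and along Dscam4 are fewer or narrower at day 50.

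Individual peaks were also matched between the ages. Of the 69 H3K27ac peaks at day 10, 38 (55.1%, exact 95% interval 42.6 to 67.1) overlapped a day 50 peak by at least 1 base, against 76.0% of the whole day 10 list. From the other side, 38 of the 42 day 50 peaks (90.5%, 77.4 to 97.3) overlapped a day 10 peak, against 80.0% of the whole list. With 38 peaks on both sides, the difference between these shares restates the counts of 69 and 42. The share at day 10 was 27.3% for Dscam3 (3 of 11 peaks), 50.0% for Dscam2 (12 of 24) and 67.7% for Dscam4 (21 of 31). These intervals cover counting error only, and peaks of the same gene are not independent. The summits of overlapping H3K27ac peaks lay a median of 32.5 bp apart, a distance that the required overlap itself limits.

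For H3K4me1, 68 of 99 day 10 peaks (68.7%, 58.6 to 77.6) overlapped a day 50 peak, against 79.4% of the whole list, and 72 of 84 day 50 peaks (85.7%, 76.4 to 92.4) overlapped a day 10 peak, against 83.2%. Dscam3 was again the lowest, at 47.8% of its 23 day 10 peaks. The day 10 H3K4me1 peaks without a partner were weaker and narrower than the others, with a median fold of 2.18 against 2.61 and a median width of 199 bp against 393 bp. For H3K27ac the folds were alike: 2.19 without and 2.22 with a partner, whereas in the whole day 10 list they were 2.14 and 2.64. The H3K27ac peaks of the Dscam genes that had a partner were therefore weaker than shared peaks of the list at large.

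The bases under peaks at day 10 alone were arranged differently in each gene. At Dscam3, 89.6% of the 2.19 kb under H3K27ac peaks at day 10 alone lay in whole peaks with no day 50 counterpart, and at Dscam2 this was 81.4% of 3.96 kb. At Dscam4 it was 40.8% of 6.13 kb, so most of its difference came from peaks that were present at both ages and narrower at day 50. The H3K4me1 values were 76.1% at Dscam3, 72.7% at Dscam1, 64.3% at Dscam2 and 36.8% at Dscam4. Bases under peaks at day 50 alone amounted to 0.236 kb of H3K27ac at Dscam3, 0.547 kb at Dscam2 and 0.766 kb at Dscam4. Dscam1 went the other way, with 0.417 kb of H3K27ac at day 50 alone and 0.325 kb at day 10 alone. None of these shares was computed over other genes or the whole lists. Whether such arrangements are usual between these lists is therefore unknown.

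The marks coincided often in 3 of the 4 genes at day 10 and less at day 50. In all 4 regions together 18.1 kb carried both marks at day 10 and 8.26 kb at day 50, while 16.4 and 18.7 kb carried H3K4me1 alone. H3K27ac therefore lay over 52.4% of the H3K4me1 bases at day 10 and 30.7% at day 50. By gene these shares were 72.7% and 44.1% at Dscam4, 61.0% and 29.7% at Dscam2, 40.7% and 14.4% at Dscam3, and 6.91% and 12.0% at Dscam1. Of the H3K4me1 peaks, 57 of 99 (57.6%, 47.2 to 67.4) overlapped an H3K27ac peak at day 10 and 34 of 84 (40.5%, 29.9 to 51.7) at day 50. In the whole lists this share was 40.2% at day 10 and 40.1% at day 50.

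Of the 18.1 kb with both marks at day 10, 6.99 kb (38.6%) still had both at day 50. Another 6.64 kb (36.7%) was under H3K4me1 alone, 1.67 kb (9.26%) under H3K27ac alone and 2.78 kb (15.4%) under neither. At Dscam2 and Dscam3 the part left with H3K4me1 alone (49.0% and 52.2%) was larger than the part that kept both marks (24.7% and 22.6%). At Dscam4 the order was reversed, with 46.9% keeping both and 28.2% under H3K4me1 alone. The same shares were not computed over other genes, so whether they are usual between these lists is unknown.

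**Figure D4:**
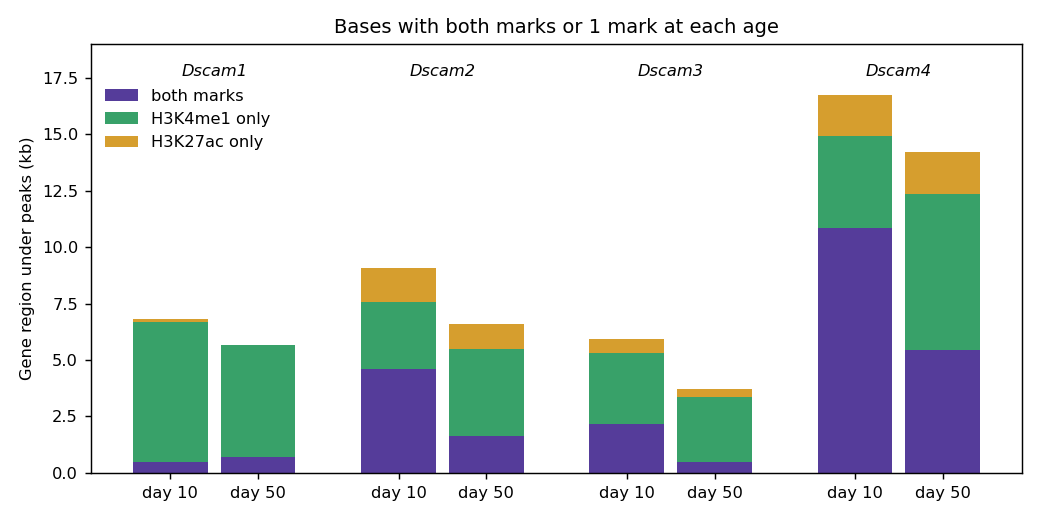
Length of each gene region in kb that lay under peaks of both marks (purple), H3K4me1 alone (green) or H3K27ac alone (yellow) at day 10 and day 50, from 1 pooled list per mark and age. The purple part is shorter at day 50 for Dscam2 (4.61 and 1.63 kb), Dscam3 (2.16 and 0.488 kb) and Dscam4 (10.9 and 5.46 kb), and 0.462 and 0.683 kb at Dscam1.

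The surroundings of the genes did not all differ in the same direction as the genes. In the 50 kb on each side of Dscam4, outside its region, H3K27ac covered 5.07% at day 10 and 7.09% at day 50, and H3K4me1 17.7% and 20.8%, both higher at day 50. Each side of Dscam4 taken alone was higher too. Beside Dscam3 H3K4me1 covered 11.0% and 12.5%, higher at day 50 on each side, while H3K27ac covered 1.58% and 2.06%, with 0.916% and 0.808% on the low-coordinate side and 2.25% and 3.32% on the other. Beside Dscam2 both marks were lower at day 50, with 12.4% and 8.90% for H3K27ac and 23.2% and 19.1% for H3K4me1. Beside Dscam1 they were 4.05% and 4.73% for H3K27ac and 18.99% and 20.5% for H3K4me1. The sides of Dscam1 differed for H3K27ac, with 1.14% and 0.584% on the low-coordinate side and 6.96% and 8.88% on the other. Of the adjoining genes, cert, which encodes a ceramide transfer protein and lies beside Dscam4, had 10.4% of its region under H3K27ac at day 10 and 18.9% at day 50, and cos had 13.2% and 14.6%. The median day 50 to day 10 ratio for H3K27ac was 1.12 over all genes and 0.838 over long genes. For H3K4me1 it was 0.999 and 0.858. Such windows were not computed beside other long genes, so whether this contrast is particular to the Dscam genes is unknown.

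**Figure D5:**
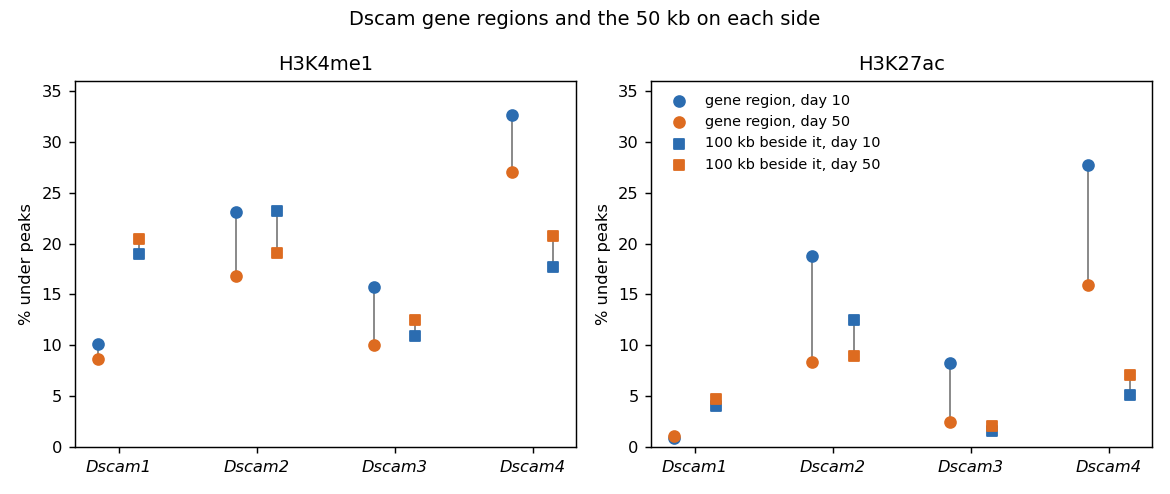
Percent under peaks in each Dscam gene region (circles) and in the 50 kb on each side of it (squares, 100 kb together) at day 10 (blue) and day 50 (orange), with a line joining the ages. Circles of Dscam3 and Dscam4 move down where their squares move up, as does the H3K4me1 circle of Dscam1, and at Dscam2 both move down.

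Among 1148 other genes with a long region, the genes most like each member were sought over the 4 values of the share under peaks (distance on the log2 scale of percent plus 1). For Dscam2 the nearest was Dpp10 (distance 0.235), with 18.7% and 9.20% of its region under H3K27ac at day 10 and day 50, followed by Mmp2, a matrix metalloproteinase gene, and smal. For Dscam3 it was Sema2a, which encodes a secreted semaphorin of axon guidance (0.295), with 8.36% and 3.08%, followed by CG11030 and CG46308. For Dscam4 it was CG2082 (0.263), with 26.8% and 18.3%, then HnRNP-K, which encodes an RNA-binding protein, and jus. For Dscam1 it was Oct-TyrR, an amine receptor gene (0.267), with 1.03% and 0.954%, then CG43373 and TM9SF4. Between family members the nearest pair was Dscam2 and Dscam4 (1.301) and the farthest Dscam1 and Dscam4 (5.45). The other genes were picked as the nearest among all long genes, so their smaller distances follow from that choice.

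Genes that act with the Dscam receptors gave a mixed picture. The list of signalling partners, ligands and related guidance genes held 24 genes, all with an H3K4me1 peak, of which 3 were lower and 0 higher at day 50 by the 1.5-fold rule. For H3K27ac 6 were lower and 3 higher, and 2 had no peak. The median difference, day 50 minus day 10, was -1.18 percentage points for H3K4me1 and -0.486 for H3K27ac, beside 0.148 and 1.73 over all genes with a peak of the mark and -1.53 and -0.897 over the long ones. The median region of the list was 21.6 kb, near the lower limit of the long genes, and its medians lay between those of the all-gene and long-gene sets. Its counts by the rule are to be read beside 17.5% lower and 5.28% higher among long genes for H3K4me1, and 28.8% and 11.1% for H3K27ac, and for H3K27ac they were near those shares. The adaptor gene dock, which links Dscam1 to the kinase Pak, had 21.0% of its region under H3K27ac at day 10 and 28.7% at day 50. The tyrosine kinase gene Src64B had 20.4% and 12.7% for H3K27ac and 20.2% and 9.64% for H3K4me1. SH3PX1, a sorting nexin gene, had 14.7% and 24.6% for H3K27ac, and the ubiquitin ligase gene hiw 21.9% and 15.3% and the GTPase gene Rac2 36.9% and 30.8% for H3K4me1.

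Of 14 genes of splicing and RNA regulation, 1 was lower and 0 higher for H3K4me1, and 3 were lower and 2 higher for H3K27ac, with median differences of -0.911 and 1.05 percentage points. The median region of this list was 10.7 kb, and over all genes 9.99% were lower and 13.5% higher for H3K4me1 and 7.81% and 22.7% for H3K27ac. The splicing factor gene SF2 had 15.2% and 26.7% under H3K27ac, the hnRNP gene glo 11.4% and 21.7%, and mub, which encodes a KH-domain protein, 41.6% and 34.2%. For H3K4me1, the chromatin remodeller gene brm had 46.1% and 54.3%, the hnRNP gene Hrb87F 33.7% and 26.1%, and the SR protein gene x16 32.3% and 38.9%. The muscleblind gene mbl, known to repress an exon of Dscam2, met the lower rule in both marks and was named after its values were seen. It had 8.71% and 5.80% under H3K4me1 (14.36 and 9.564 kb), only just past the rule. H3K27ac was sparse there, with 0.91% and 0.41%, or 1.5 and 0.676 kb of a region of 164.8 kb.

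Of 18 other surface genes, nearly all of the immunoglobulin superfamily, 5 were lower and 1 higher for H3K4me1, and 6 were lower and 1 higher for H3K27ac, with 1 without an H3K27ac peak. Among long genes 17.5% and 28.8% were lower and 5.28% and 11.1% higher. Without regard to size, 15 of the 18 had fewer bases under H3K27ac at day 50 and 2 had more, with a median ratio of 0.716, beside 65.8% of long genes with fewer and a median ratio of 0.838. The turtle gene tutl, of dendrite and axon patterning, had 22.7% and 16.5% under H3K4me1, klg 9.46% and 4.13%, and Ama 15.4% and 26.1%. For H3K27ac, hbs had 10.7% and 6.25%, the cell adhesion gene bdl (borderless) 22.2% and 29.3%, and Cont, the contactin of septate junctions, 9.19% and 17.1%. The median region of this list was 42.3 kb, so most of its members also belong to the long genes described above.

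Markers of head cell types were read in the same lists. All 6 neuronal markers carried both marks at both ages, and 5 of the 6 had fewer H3K4me1 bases and 4 of the 6 fewer H3K27ac bases at day 50, with a summed H3K27ac share of 9.27% at day 10 and 7.78% at day 50. Their median region was 32.3 kb, and these counts were near the 76.7% and 65.8% of long genes with fewer bases. The markers elav and nSyb had more H3K27ac at day 50 (24.0% and 28.7%, and 15.3% and 16.4%). The summed H3K27ac share of 4 photoreceptor markers was 14.0% and 10.9%, with chp at 0 at both ages. Most of it lay at norpA, with 8.27 and 6.56 kb, while ninaE had 0 and 4.58% of its region under the mark. The sum of 4 glial markers was 19.7% and 24.6%, with repo at 0. For fat body it was 3.50% and 4.39%, with Fbp1 and Yp1 at 0, for hemocytes 0.981% and 2.14%, with Hml and eater at 0, and for muscle 0 and 0.734%, with Act88F, wupA and up at 0. Testis markers, read as cells absent from heads, had 24.6% and 18.5%, with dj at 0, so a peak over a marker does not show that cell type. Most of the testis share lay at bol, with 11.0 and 8.31 kb, while twe and can also had H3K27ac peaks at both ages. For H3K4me1 the summed shares were 12.6% and 9.96% in neurons, 9.54% and 6.88% in photoreceptors, 24.2% and 25.2% in glia, 2.48% and 6.48% in fat body, 1.21% and 2.44% in hemocytes, 0.318% and 0.526% in muscle and 23.6% and 22.6% in testis. The fat body difference lay mostly at Lsd-1 (0.494 and 1.69 kb, against 0.307 and 0.405 kb at apolpp). The hemocyte value came from srp alone and the muscle value from up alone. The part of cell composition in the Dscam values was not tested.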

How the data were processed

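Heads of male w1118 flies at day 10 and day 50 were profiled for H3K4me1 and H3K27ac, with 2 ChIP and 2 input samples per mark and age (16 samples in 8 groups, from the titles). Nuclei were digested with micrococcal nuclease and sonicated, per the labels' protocols. MACS2 2.1.1, STAR 2.5.3a, deepTools, Trim Galore, FastQC and the build BDGP6 are listed, with no role, per the submitters' processing notes; how each was set is not given in the sources used here. The authors deposited 4 peak lists, each of both replicates pooled, going by the peak names. Each gives a fold enrichment ratio per peak, deposited by the authors, a -log10 q deposited by the authors and a summit offset. Folds were ranked within a list only, and folds printed for both ages were not rescaled between lists. Cutoffs on -log10 q were applied to each list, and summit positions were compared between the ages. Deeper sequencing lets more peaks pass a q threshold, and depth is unknown.

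Genes were placed with RefSeq positions on Release 6, in a table without strand or exons. Bases of each region under peaks were counted with Python 3.11.15, NumPy 2.4.6 and SciPy 1.17.1, and checked on simulated regions. Shares have exact (Clopper-Pearson) 95% intervals. No sequence is shown. The genes, lists and rules were chosen with earlier results of these data known. Named list genes are the 3 with the largest absolute difference in share per list and mark; named peaks have the highest fold per gene, mark and age, and other groups of peaks were picked after seeing them. The symbol TBCD was matched to Tbcd as a synonym. Alternatives covered peak thresholds, region, overlap, fold rule and shared bases.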

Additional observations from a re-analysis of the deposited data

Results flagged for a closer look

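Dscam1 was the one member whose marks lay on opposite sides of equality: its bases under H3K4me1 peaks had a day 50 to day 10 ratio of 0.85 and those under H3K27ac peaks a ratio of 1.16. The difference between the marks was not tested, there being 1 pooled list for each, and the H3K27ac value rests on 3 peaks at each age.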

How the results depend on the processing

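No paired analysis was possible because each list pools both replicates, and for the same reason no replicate could be left out. The summed ratios of covered bases stayed below 1 in all 6 alternatives, from 0.375 to 0.559 for H3K27ac and 0.688 to 0.84 for H3K4me1, and 3 genes were lower in H3K27ac in all but the 2-fold rule, where 2 were. The number of genes lower in H3K4me1, 1 as reported, was 2 with a looser fold rule and with the 50% of each list that had the highest -log10 q, and 0 with the 2-fold rule, with equal numbers of peaks and with flanks of 5000 bp. The share of H3K4me1 peaks overlapping an H3K27ac peak was 46.2% at day 10 and 26.4% at day 50 among peaks reaching a -log10 q of 5, and 38.6% and 18.8% in the upper 50%. The share of day 10 H3K27ac peaks with a day 50 partner was 39.0% and 27.3% in the same settings, in which fewer peaks can overlap. Shares of the whole lists in these settings were not computed, so these overlap shares have no background beside them. At a -log10 q of 5 the H3K27ac ratio of Dscam1 was 0.842, a change of direction, and the H3K4me1 ratio of Dscam3 was 0.191. With the upper 50%, no H3K27ac peak of Dscam3 was left at day 50, none of Dscam1 at day 10, and the H3K27ac ratio of Dscam4 was 0.329. For long genes the summed H3K27ac ratio was 0.877 and 0.811 in these settings. Unknown depth and the lack of replicates limit every difference between ages.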
